A study of Rattus norvegicus with 16 samples.

Results

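A group of 5 genes that mark immune cells or serve antigen presentation was followed in testicular germ cells (GCs) of rats fed the control diet (CD) or the high fat diet (HFD). The 5 genes are Cd74, B2m, Ptprc, Aif1 and Cd68, which were taken from the 26560 genes of the deposited count table by their Ensembl identifier and kept because each was listed on the chromosome named for it. All 5 reached the minimum for testing, an average of 1 read per mRNA library, as did 19446 genes in all. By the labels, male Sprague-Dawley rats received from weaning either the HFD, with 40% of calories from fat, or the CD, with 10%, until 19 weeks of age. A somewhat larger fat content of the HFD is given in the study's methods. Testes were dissociated and GCs were collected by fluorescence-activated cell sorting for eGFP, a fluorescent protein that a transgene expresses in the GCs of every rat in both groups; the promoter of the transgene is not given in the labels. Each diet had 4 mRNA libraries, one for each of 4 replicates, and small RNA libraries from the same numbers of replicates. The replicates are separate animals by the study's methods.

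Immune cells of the testis live mainly in the interstitium, between the seminiferous tubules that hold the GCs, and macrophages are the most abundant of them. Antigen presentation uses a pair of routes. Class I molecules of the major histocompatibility complex (MHC) are made by most nucleated cells and need the light chain beta-2-microglobulin, which B2m encodes, to reach the cell surface. Class II molecules belong to professional antigen-presenting cells, where the invariant chain, which Cd74 encodes, escorts them to the compartment in which peptides are loaded. Ptprc encodes CD45, a receptor tyrosine phosphatase found on nearly all leukocytes. Cd68 encodes a lysosomal membrane glycoprotein that is abundant in macrophages. Aif1 encodes Iba1, a calcium-binding protein that bundles actin and is widely used to stain macrophages and microglia, and its gene lies within the MHC.

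The genes lie on 5 chromosomes of the rn5 build that the files use. Cd74 (ENSRNOG00000018735) was listed at chr18:55305848-55315242 on the plus strand with 9 exon blocks and 1414 bp of annotated exon length. B2m (ENSRNOG00000017123) was listed at chr3:120627499-120633521 on the plus strand, with 4 exon blocks and 1827 bp. Ptprc (ENSRNOG00000000655), the longest of the group, spanned chr13:60094039-60205338 on the minus strand in 33 exon blocks of 5050 bp. Aif1 (ENSRNOG00000000853) lay at chr20:7234609-7239707 on the minus strand, with 7 exon blocks and 1782 bp. Cd68 (ENSRNOG00000037563) lay at chr10:56014365-56016243 on the minus strand, with 6 exon blocks and 1199 bp. The span of each was free of other listed genes (0 overlaps), so that the counts of each gene came from exons with no annotated neighbour on top of them. The closest neighbour was that of Cd68, 651 bp away on the same strand. The log2 fold change of this neighbour between diets was -0.10 (SE 0.113), against -1.04 for Cd68 itself. The neighbour had 2533 to 4222 reads per library, against 10 to 44 for Cd68. Whether reads running on from the neighbour entered the Cd68 counts was not tested.

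The sequences from 250 bases before to 50 bases after the annotated start are shown for the 4 genes with an entry in the promoter table, all but Aif1, so that the promoters can be compared side by side. They were taken from RefSeq on the GRCr8 build, and positions are counted from the start without a position 0. Capitals mark matches, on either strand, to 4 of 5 short motifs that were searched: CCAAT, the box bound by NF-Y; AGGAAGT, a core for ETS factors; GAAANNGAAA, the core of an interferon-stimulated response element; and the NF-kB consensus. TTCNNNGAA, the core bound by STAT factors, matched in 0 of the 4. Cd74 is at chr18:56526956-56527255 on the plus strand, B2m at chr3:129549080-129549379 on the plus strand, Ptprc at chr13:52259697-52259996 on the minus strand and Cd68 at chr10:54882392-54882691 on the minus strand, each printed 5′ to 3′ along the strand of its gene.
Cd74: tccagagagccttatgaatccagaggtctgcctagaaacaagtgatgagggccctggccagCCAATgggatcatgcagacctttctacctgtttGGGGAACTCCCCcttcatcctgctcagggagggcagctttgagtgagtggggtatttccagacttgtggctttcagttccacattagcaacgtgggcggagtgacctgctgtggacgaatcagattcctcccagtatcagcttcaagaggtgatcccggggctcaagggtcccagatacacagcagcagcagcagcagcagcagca
B2m: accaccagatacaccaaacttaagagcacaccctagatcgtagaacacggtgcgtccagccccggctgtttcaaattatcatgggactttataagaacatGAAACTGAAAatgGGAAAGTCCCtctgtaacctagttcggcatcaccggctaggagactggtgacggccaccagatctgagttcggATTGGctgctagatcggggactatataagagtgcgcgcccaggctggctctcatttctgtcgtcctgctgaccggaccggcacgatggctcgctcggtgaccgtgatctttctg
Ptprc: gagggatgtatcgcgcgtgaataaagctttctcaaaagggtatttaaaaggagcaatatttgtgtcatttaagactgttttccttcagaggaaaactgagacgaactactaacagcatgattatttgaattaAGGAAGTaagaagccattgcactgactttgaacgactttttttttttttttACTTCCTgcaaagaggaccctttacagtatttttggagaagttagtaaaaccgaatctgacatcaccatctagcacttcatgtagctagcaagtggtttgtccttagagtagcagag
Cd68: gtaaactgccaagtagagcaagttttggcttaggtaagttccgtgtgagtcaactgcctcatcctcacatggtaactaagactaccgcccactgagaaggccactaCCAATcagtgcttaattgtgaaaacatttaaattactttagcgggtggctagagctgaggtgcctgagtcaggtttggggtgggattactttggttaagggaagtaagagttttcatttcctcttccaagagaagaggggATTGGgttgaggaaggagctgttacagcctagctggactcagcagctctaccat
In the Cd74 promoter CCAAT matched at -189 to -185, and the NF-kB consensus matched 4 times in overlapping positions on both strands between -156 and -145. B2m carried GAAANNGAAA at -150 to -141, a match to the NF-kB consensus on the minus strand at -137 to -128, which is separated from it by a few bases, and CCAAT on the minus strand at -64 to -60. Ptprc had AGGAAGT at -118 to -112 and again, on the minus strand, at -67 to -61, and matched none of the other motifs. Cd68 had CCAAT at -144 to -140 and, on the minus strand, at -4 to 1. Of 33469 rat promoters of the same length, 37.5% held CCAAT, 8.41% AGGAAGT, 3.92% GAAANNGAAA, 8.87% TTCNNNGAA and 7.51% the NF-kB consensus. These matches describe letters, not bound sites.

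The mRNA libraries held between 38633043 and 62038805 counts assigned to genes, and the scaling factors of the trimmed mean of M values (TMM) ran from 0.856 to 1.09. No 2 of the 8 libraries were alike within sampling noise (lowest chi-square per degree of freedom over the 28 pairs 9.09). Across all genes 0 of 19446 had an adjusted p under 0.05 between diets with edgeR's quasi-likelihood test, against 725 (3.73%) at an unadjusted p under 0.05, 6 (0.0309%) with DESeq2 and shrunken fold changes and 7 (0.0360%) with DESeq2 without shrinkage. CD replicate 4 stood apart: without it, 3379 genes had an unadjusted p under 0.05 and still 0 passed after adjustment. Lists of markers of GCs, Sertoli cells, Leydig cells, leukocyte subsets and MHC genes could not be read. The reference matched 0 of the 26560 identifiers to a symbol, so that the labelled cell type was not checked here against its markers. The study reported a check of the sorted cells by quantitative PCR with genes of GCs, Sertoli cells and Leydig cells. No leukocyte gene is named in that check.

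Per kilobase of annotated length, the order of the mean levels over the 8 libraries was Aif1, Cd74, B2m, Cd68 and Ptprc. Aif1 stood at 200.8 CPM (counts scaled to a common library size, with TMM factors, as edgeR gives them) per kb, rank 578 of the 19446 genes tested and thus at the 97.0th percentile. On the same scale Cd74 stood at 3.89 (60.3th percentile) and B2m at 3.16 (57.9th percentile), close to the middle of the distribution. Cd68, at 0.402 (33.4th percentile), and Ptprc, at 0.183 (23.6th percentile), were in its lower part.

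**Figure D1:**
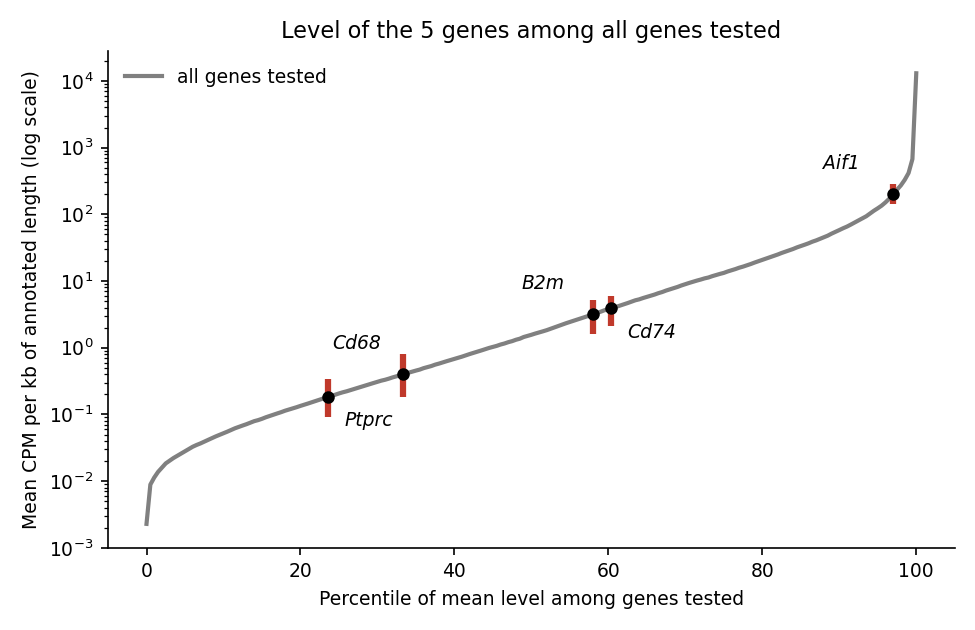
Mean CPM per kb of annotated length (log scale) of the 5 genes, drawn as black points on the curve of all genes tested ordered by percentile; red bars span the lowest to the highest of the 8 libraries. Aif1 lies at the 97.0th percentile, Cd74 and B2m at the 60.3th and 57.9th, and Cd68 and Ptprc at the 33.4th and 23.6th.

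The gap between Aif1 and the other 4 genes was far wider than their spread over libraries. Aif1 per kb exceeded Cd74 per kb by at least 31.2 times in every library, and Cd68 per kb by at least 215.9 times. Cd74 and B2m were not separated in the same way, since the ratio of B2m to Cd74 per kb ran from 0.566 to 1.06 in HFD libraries and from 0.721 to 1.0 in CD libraries. Cd74 exceeded Cd68 per kb by at least 6.92 times in each library and B2m exceeded it by at least 5.41 times. Ptprc was below Cd68 per kb in all 8 libraries, at a ratio of 0.314 to 0.878. The group therefore held 1 abundant gene and 4 with much lower levels, although Cd74 and B2m were mid-range among all genes tested. The 4 lower genes together made up at most 0.00217% of the counts of a library, against 0.0269% to 0.0434% for Aif1 alone. Whether the Aif1 reads came from immune cells or from GCs was not tested.

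Cd74, the invariant chain gene, had 139, 201, 240 and 194 reads on the HFD (replicates 1 to 4, in this order throughout) and 295, 305, 248 and 359 on the CD. After TMM scaling these were 3.41, 2.99, 5.44 and 4.25 CPM on the HFD and 7.15, 8.37, 4.61 and 7.76 CPM on the CD. Of the HFD libraries, 3 lay below every CD library, and the diets overlapped only through HFD replicate 3, which was above CD replicate 3. The mean was 4.02 ± 1.08 CPM on the HFD and 6.97 ± 1.65 CPM on the CD (SD, n = 4 each), a log2 fold change of -0.79 (SE 0.219, 95% interval -1.27 to -0.31) in the edgeR fit. With edgeR's quasi-likelihood test the unadjusted p was 0.00384, the 28th smallest of the 19446, and the adjusted p over all genes was 0.829, so that the difference did not pass the test. Because each library is a bulk sample, fewer cells of a type and less RNA per cell cannot be told apart, here and for the other 4 genes.

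B2m, the light chain of class I molecules, gave 119, 276, 228 and 142 reads on the HFD and 381, 286, 231 and 442 on the CD. The scaled levels were 2.92, 4.11, 5.17 and 3.11 CPM on the HFD and 9.23, 7.84, 4.30 and 9.56 CPM on the CD. The picture was that of Cd74: HFD replicate 3 was the highest of its diet, CD replicate 3 the lowest of its own, and only that pair crossed. The means were 3.83 ± 1.04 and 7.73 ± 2.41 CPM (SD, n = 4 each). The edgeR log2 fold change was -1.01 (SE 0.254, 95% interval -1.56 to -0.45), with an unadjusted p of 0.00203, the 14th smallest of all genes, and an adjusted p of 0.829.

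Ptprc, the CD45 gene, was sparse, with 19, 35, 44 and 37 reads on the HFD and 37, 46, 41 and 78 on the CD. Its levels were 0.467, 0.521, 0.998 and 0.810 CPM on the HFD and 0.897, 1.26, 0.763 and 1.69 CPM on the CD. HFD replicates 1 and 2 were below all CD libraries and the other pair lay among them, while CD replicate 4 was well above the rest. The means of 0.699 ± 0.250 and 1.15 ± 0.414 CPM (SD, n = 4 each) gave an edgeR log2 fold change of -0.72 (SE 0.323, 95% interval -1.43 to -0.01), an unadjusted p of 0.0465 and an adjusted p of 0.829.

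Cd68, the lysosomal macrophage gene, had the fewest reads, 10, 20, 22 and 10 on the HFD and 28, 16, 28 and 44 on the CD. A count of 10 has an exact Poisson 95% interval of 4.80 to 18.4 and a count of 44 one of 32.0 to 59.1. These intervals cover counting error only, not the spread between rats. Reads without molecular identifiers are not independent molecules, so that the intervals may be too narrow even for counting error. The scaled levels were 0.246, 0.298, 0.499 and 0.219 CPM on the HFD and 0.678, 0.439, 0.521 and 0.951 CPM on the CD. Only HFD replicate 3 reached into the CD range, above CD replicate 2. The means were 0.315 ± 0.127 and 0.647 ± 0.226 CPM (SD, n = 4 each), and the edgeR log2 fold change was -1.04 (SE 0.357, 95% interval -1.82 to -0.26) with an unadjusted p of 0.0138 and an adjusted p of 0.829.

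Aif1, the Iba1 gene, gave 10513, 19540, 16565 and 16367 reads on the HFD and 20933, 16601, 16742 and 14117 on the CD. The levels were 258.2, 291.1, 375.7 and 358.4 CPM on the HFD and 507.2, 455.3, 311.5 and 305.3 CPM on the CD. Here the diets were interleaved: HFD replicates 3 and 4 were above CD replicates 3 and 4, and CD replicate 4, which was the highest library for B2m, Ptprc and Cd68, was the lowest of its diet. The means were 320.8 ± 55.4 and 394.8 ± 102.1 CPM (SD, n = 4 each). The edgeR log2 fold change was -0.30 (SE 0.176, 95% interval -0.69 to 0.09), with an unadjusted p of 0.116 and an adjusted p of 0.829.

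**Figure D2:**
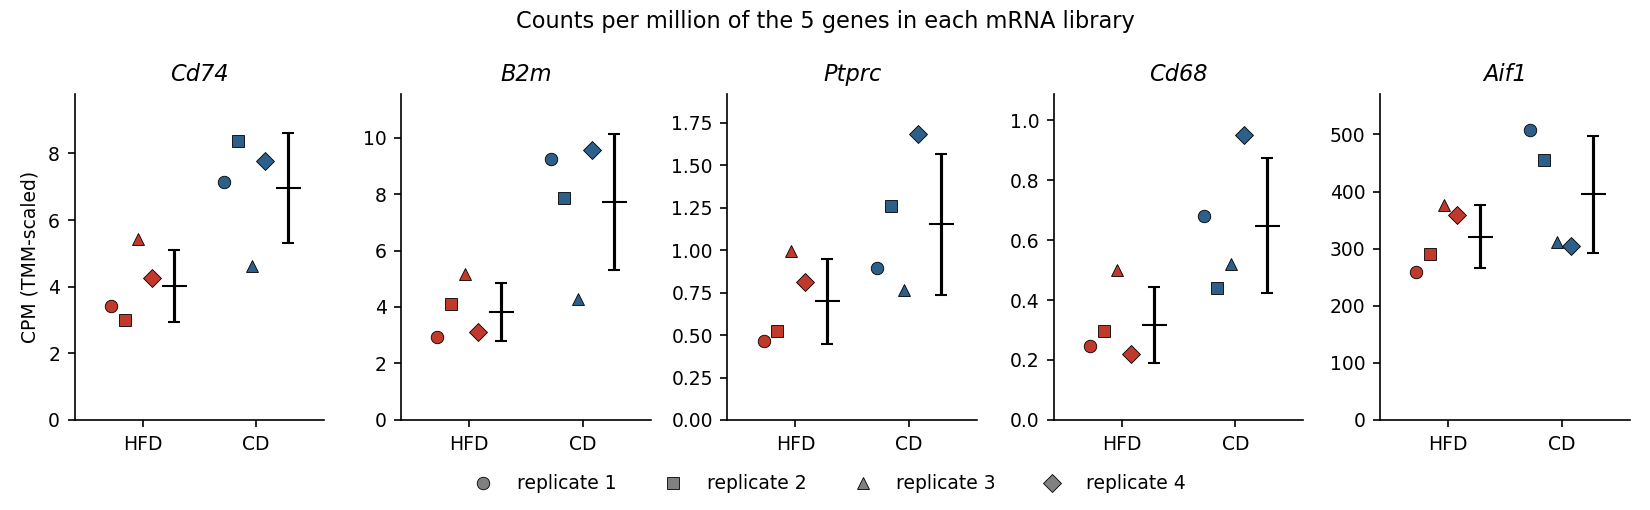
TMM-scaled CPM of each gene in the 4 HFD (red) and 4 CD (blue) libraries, with the marker shape giving the replicate number and the black bar the mean ± SD (n = 4); each panel starts at 0 and has its own scale. HFD replicate 3 is the highest HFD library in all 5 panels, and the diets overlap in each.

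The range of CPM of the diets overlapped for all 5 genes, while the diets did not overlap for 2.12% of the genes tested, and for 1.04% every HFD library was below every CD library. Of the 5 genes, 4 had an unadjusted p under 0.05 with a lower level on the HFD in edgeR's test, where 2.52% of all genes tested did (3.73% in either direction). All 5 log2 fold changes were below 0, which held for 51.2% of all genes, and their median was -0.79 against -0.0061 over all genes. These comparisons are no test of the group. The 5 genes were chosen with earlier results of these data known, and several of them were correlated over the same libraries. Leaving out 1 library at a time, Cd74 and B2m kept an edgeR unadjusted p under 0.05 in all 8 refits, whereas that of Ptprc was over it in 5 (0.164 without CD replicate 4) and that of Cd68 in 1 (0.0528, also without CD replicate 4). Without that library the unadjusted p of Aif1 was 0.0320 in edgeR's test. None of the 5 passed after adjustment (0 of 5, where 0% of all genes were called). The share of all genes with a log2 fold change at or below that of the gene was 5.37% for Cd74, 3.61% for B2m, 6.23% for Ptprc, 3.45% for Cd68 and 18.7% for Aif1. Among genes that averaged at least 10 reads per library, which have less counting noise, these shares were 1.51%, 0.649%, 1.97% and 0.583% for Cd74, B2m, Ptprc and Cd68, and 13% for Aif1. Ptprc and Cd68 had few reads themselves, so that counting noise enters their place in this order. With DESeq2 and shrunken fold changes, the test used in the study, the log2 fold changes were -0.46 for Cd74 (adjusted p = 0.653) and -0.52 for B2m (adjusted p = 0.235), and those of Ptprc, Cd68 and Aif1 were -0.28, -0.33 and -0.20, each with a DESeq2 adjusted p of 0.906, where 0.0309% of all genes were called (0.0360% without shrinkage).

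**Figure D3:**
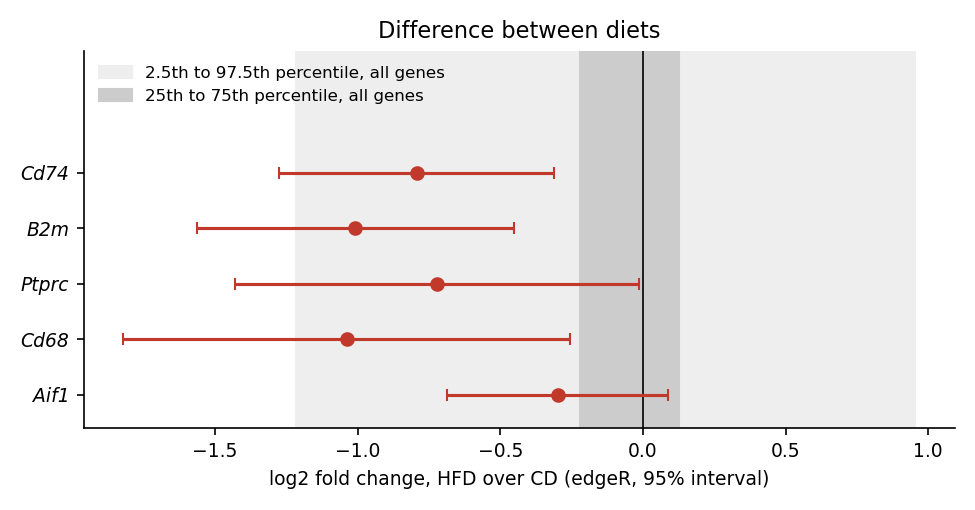
Log2 fold change of HFD over CD for each gene, as edgeR estimates with 95% intervals; the dark band spans the 25th to 75th percentile of all 19446 genes tested (-0.22 to 0.13) and the light band the 2.5th to 97.5th (-1.22 to 0.95). All 5 estimates lie below 0 and inside the light band, Aif1 nearest to 0, and no adjusted p was under 0.05.

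The spread of CPM between rats of one diet, counting noise included, was unequal between the genes. The coefficient of variation of CPM on the HFD and the CD was 26.8% and 23.6% for Cd74, 27.1% and 31.1% for B2m, 35.7% and 36.0% for Ptprc, 40.2% and 34.9% for Cd68, and 17.3% and 25.8% for Aif1. For Cd68, the gene with the fewest reads, the spread of the 4 libraries was 2.26 times counting noise on the HFD and 3.45 times on the CD, as chi-square per degree of freedom. For B2m the same measure was 12.2 and 38.7, but it grows with the number of reads and so does not rank the genes. The edgeR biological coefficient of variation was above the trend at the gene's level for B2m (0.252 against 0.176), Cd74 (0.220 against 0.177), Ptprc (0.295 against 0.259) and Aif1 (0.183 against 0.129), and just below it for Cd68 (0.289 against 0.303). From the lowest to the highest of all 8 libraries, Cd68 spanned 4.35 times, Ptprc 3.61, B2m 3.27, Cd74 2.79 and Aif1 1.96.

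Summed over Cd74, B2m, Ptprc and Cd68, the level was 7.05, 7.93, 12.1 and 8.39 CPM on the HFD and 18.0, 17.9, 10.2 and 20.0 CPM on the CD. The median was 8.16 CPM on the HFD and 17.9 CPM on the CD, and Cd74 and B2m made up most of each sum. HFD replicate 3 and CD replicate 3, the highest and the lowest of their diets, were again the pair that crossed. None of the 4 genes was at 0 in any library.

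To ask whether the genes moved together between rats, the log2 CPM of each pair was correlated over the 8 libraries, with exact permutation tests (two-sided) adjusted over the 10 pairs. Cd74 and Ptprc had the highest correlation, r = 0.904 (exact permutation p = 0.00236, adjusted 0.0222) and rho = 0.905 (exact permutation p = 0.00456, adjusted 0.0268). Cd74 and B2m followed with r = 0.887 (exact permutation p = 0.00667, adjusted 0.0222) and rho = 0.857 (p = 0.0107 by exact permutation, adjusted 0.0268). B2m and Cd68 had r = 0.878 (exact permutation p = 0.00583, adjusted 0.0222) and rho = 0.881 (p = 0.00724 by exact permutation, adjusted 0.0268). B2m and Ptprc had r = 0.794 (exact permutation p = 0.0190, adjusted 0.0476) and rho = 0.857 (p = 0.0107 by exact permutation, adjusted 0.0268). Without the 2 libraries farthest from the median of the first gene, r was 0.873, 0.980, 0.729 and 0.793 for these pairs. Each pooled r also holds the difference between the diets. After centring on the mean of each diet, r was 0.846 for Cd74 and Ptprc, 0.721 for Cd74 and B2m, 0.700 for B2m and Cd68 and 0.625 for B2m and Ptprc, and with permutation within diets none of the 10 pairs passed (adjusted p = 0.243 for the first and 0.285 for the other 3).

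Cd68 had an r of 0.758 with Cd74 and of 0.750 with Ptprc, neither under 0.05 after adjustment (0.0546 for each by exact permutation, with rho = 0.643 and 0.595). The second of these rested on few libraries, since r was 0.402 without the 2 farthest, while the first was then 0.909. The correlations of Aif1 did not pass either: r was 0.697 with Cd74 (exact permutation p = 0.0586, adjusted 0.0837), 0.613 with B2m (0.111, adjusted 0.139), 0.468 with Ptprc (0.243, adjusted 0.270) and 0.332 with Cd68 (0.419, adjusted 0.419). Without the 2 libraries farthest from the median of the first gene of the pair, these were 0.560, 0.796, 0.755 and 0.131, higher than over all libraries for B2m and Ptprc and lower for Cd74 and Cd68. Centred on diet, Cd74 had an r of 0.615 with Aif1 and of 0.412 with Cd68, and Aif1 and Cd68 had an r of -0.022.

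**Figure D4:**
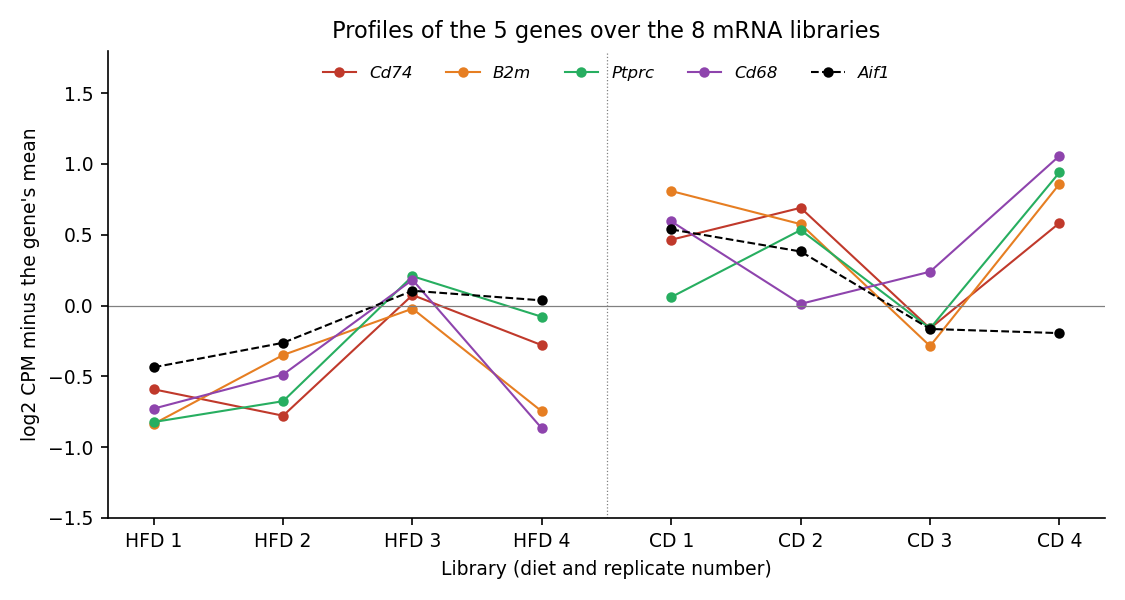
Log2 CPM of each gene minus its mean over the 8 libraries, by diet and replicate number; lines join the points of one gene within a diet and mark no order of the libraries. Cd74, B2m, Ptprc and Cd68 are high in CD replicate 4, where Aif1 (dashed) is low, and all 5 are at their highest HFD value in HFD replicate 3.

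The ratio of Aif1 to the other genes within a library is free of the scaling between libraries. Aif1 over Cd74 per kb ran from 54.8 to 77.1 on the HFD (median 63.5) and from 31.2 to 56.3 on the CD (median 48.4). Only the lowest HFD value lay inside the CD range. Aif1 over Ptprc ran from 1067 to 1582 on the HFD, wholly inside the CD range of 512.9 to 1603, and Aif1 over Cd68 from 506.6 to 1101 on the HFD and from 215.9 to 698.1 on the CD. Aif1 over B2m ran from 72.6 to 118.2 on the HFD and from 32.7 to 74.3 on the CD. Over all 8 libraries Aif1 over Cd74 spanned 2.47 times, Aif1 over B2m 3.61 times and Aif1 over Cd68 5.10 times. Among the 4 lower genes, Cd74 over Ptprc spanned 1.73 times, B2m over Cd74 1.88 times and B2m over Cd68 2.17 times. Cd74 over Cd68 spanned 2.38 times and Ptprc over Cd68 2.80 times. Cd74, B2m, Ptprc and Cd68 each kept a steadier proportion to another of these 4 genes than to Aif1. The margin could be small, as for Cd74 over Cd68 (2.38 times) against Aif1 over Cd74 (2.47 times). These spans also hold the difference between the diets, which was smaller for Aif1 (edgeR log2 fold change -0.30) than for the other 4 (-1.04 to -0.72). The widest of the ratios listed among the lower genes, Ptprc over Cd68, joined the genes with the fewest reads. The ratio of B2m to Ptprc was not computed.

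Each gene was also compared with the 15256 other genes that averaged at least 10 reads per library, by Pearson's r of log2 CPM over the 8 libraries, as a description without a test. Aif1 had 990 genes (6.49%) with an r of at least 0.9, and the highest r was 0.998 with each of 2 genes whose mean counts were 11583 and 13234. Cd74 had 36 such genes (0.236%), B2m 47 (0.308%), Ptprc 27 (0.177%) and Cd68 21 (0.138%). The 5 lists did not mix alike, but sharing depends on the correlation of the pair itself and adds no separate evidence. Cd74 and Ptprc shared 12 genes, 33.3% of the list of Cd74 and 44.4% of that of Ptprc, Cd74 and B2m shared 11 (30.6% and 23.4%), and B2m and Cd68 shared 5 (10.6% and 23.8%). Aif1 shared 0 with any of the other 4. Its correlations with B2m, Ptprc and Cd68 were too low for any gene to reach this r with both. For those pairs the result was therefore fixed in advance. Aif1 had far more reads than the other 4 genes, and the part of depth in the sizes of these lists was not tested.

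**Figure D5:**
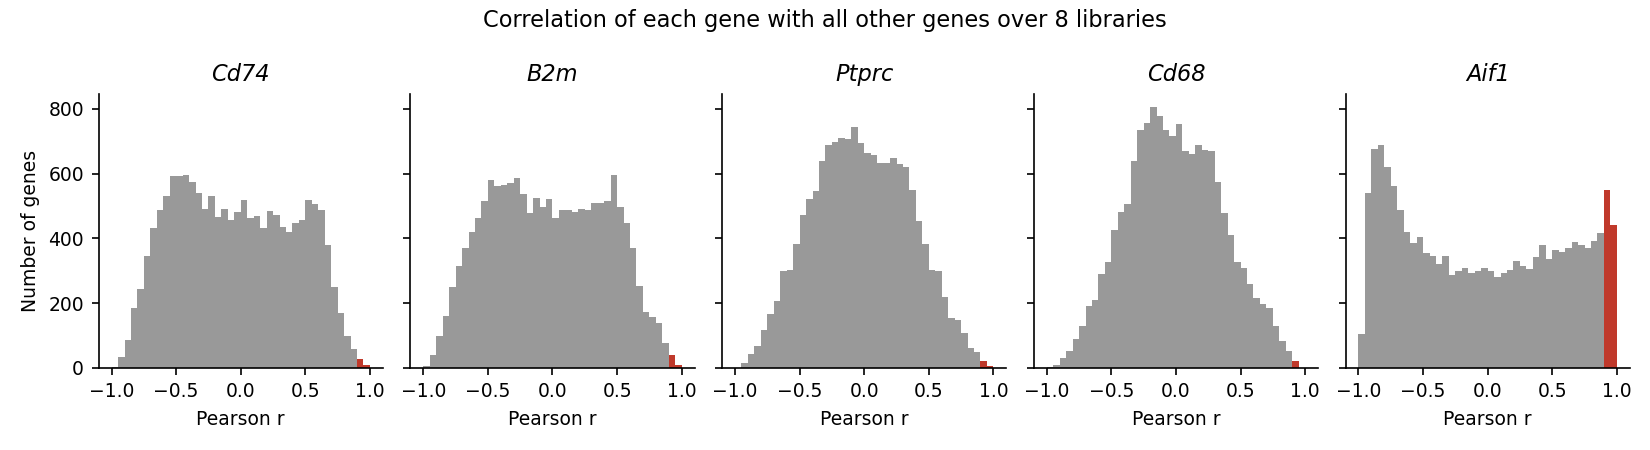
Number of genes by Pearson r of log2 CPM with each of the 5 genes over the 8 libraries, among 15256 other genes that averaged at least 10 reads per library; red bars hold the genes with an r of at least 0.9. Aif1 has 990 genes in red and many at strongly negative r, whereas the other 4 have 21 to 47.

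The gene most like Cd74 was ENSRNOG00000032844 at chr20:6207784-6212754, with r = 0.968 and an edgeR log2 fold change of -0.90. The gene most like B2m, ENSRNOG00000029682 at chr20:7113249-7122091, had r = 0.965 and a log2 fold change of -1.43 from a mean count of only 19.0, and lay within 1 Mb of Aif1. Both had an adjusted p of 0.829 in edgeR's test. The best matches of Ptprc and Cd68 had r = 0.960 and 0.963, and the second matches of Cd74, B2m, Ptprc and Cd68 had r = 0.965, 0.962, 0.954 and 0.950. The identifiers were not paired with symbols, so that these genes are not named.

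The 1 Mb on either side of Aif1 on chromosome 20, within the region of the rat MHC, held 110 listed genes, of which 96 were tested. In edgeR's test 0 of the 96 had an adjusted p under 0.05. An unadjusted p under 0.05 in the same test was reached by 6, 5 of them lower on the HFD. Over all genes tested these shares were 3.73% in either direction and 2.52% lower on the HFD. The window lay above both, with few genes, and that difference was not tested. The region was evenly split, with 51 genes lower and 45 higher on the HFD and a median log2 fold change of -0.024, close to the -0.0061 of all genes. Aif1 ranked 8 in this window by CPM per kb.

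Of the small RNA counts, those of piRNA entries were read for these loci. Among the deposited piRNA entries, 10 lay inside Ptprc and 0 inside each of the other 4 genes. Of these 10, 5 had any count, and 0 were listed at a single place in the genome, so that their counts cannot be assigned to Ptprc.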

How the data were processed

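For each gene the authors deposited raw counts for 8 mRNA libraries and for each piRNA entry raw counts for 8 small RNA libraries. By the paper's methods and the file headers, reads were aligned to rn5 with STAR 2.3.0 and uniquely aligned reads were counted on the reverse strand over Ensembl 73 genes with featureCounts 1.4.6. Totals of assigned counts were 38633043 to 62038805 per mRNA library.

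Groups and replicate numbers came from the sample labels. The filter (an average of 1 count per mRNA library) was that of the study, but it was applied here to all listed genes. The study applied it to protein-coding genes, so that the set of genes tested was not the same. Diets were compared in R 4.3.3 with edgeR 4.0.16 (TMM, quasi-likelihood test, diet only, Benjamini-Hochberg over all genes), and DESeq2 1.42.0 was run beside it. The SE was the size of the log2 fold change over the root of F. Log2 CPM used a prior count of 2, and the fits were tested on simulated data. Correlations were tested by exact permutation in Python 3.11.15, with ranks and adjusted p-values from scipy 1.17.1. The 5 genes and the lists were chosen with earlier results of these data known. The genes named beside them were the 2 with the highest r to each, printed by identifier for 2 in all. The deposited miRNA and repeat counts were not used here. Alternatives covered the test, size factors, filter, robust fit, replicate block and leaving out each library.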

Additional observations from a re-analysis of the deposited data

How the results depend on the processing

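Every log2 fold change of the 5 genes kept its direction and stayed above an adjusted p of 0.05 in all 80 refits. Leaving out 1 library gave -0.98 to -0.67 for Cd74, -1.21 to -0.89 for B2m, -0.94 to -0.47 for Ptprc, -0.40 to -0.16 for Aif1 and -1.33 to -0.79 for Cd68, with edgeR adjusted p-values from 0.221 to 1.0. The other alternatives ranged down to the shrunken DESeq2 values for 4 genes, and to -0.19 for Aif1 with library totals in place of TMM. The number of genes called was 0 with edgeR, 6 and 7 with DESeq2 with and without shrinkage, and 0 to 1 when 1 library was left out (1 without HFD replicate 4). Genes at an unadjusted p under 0.05 numbered 412 to 3379 without 1 library, with 452 without HFD replicate 1, 449 without HFD replicate 2, 412 without CD replicate 1, 462 without CD replicate 2 and 3379 without CD replicate 4, where edgeR gave adjusted p-values of 0.221 for Cd74 and B2m, 0.462 for Ptprc, 0.252 for Aif1 and 0.290 for Cd68. Replicate numbers did not pair the samples: same-numbered libraries had correlated deviations of -0.198 to 0.030, and 1 of 4 HFD libraries matched best with its own number. With the replicate block 0 genes were called and 322 had an unadjusted p under 0.05 in edgeR, and Cd74 stood at -0.80, B2m at -0.99, Ptprc at -0.72, Aif1 at -0.28 and Cd68 at -1.01. Centred on each diet, r no longer passed for Cd74 with B2m (0.721), Cd74 with Ptprc (0.846), B2m with Ptprc (0.625) and B2m with Cd68 (0.700), and changed sign for Aif1 with Cd68 (-0.022). The cause was not tested. On log2(CPM + 1), Ptprc with Cd68 passed (r = 0.775, adjusted 0.0487 by exact permutation). Cd68 had only 10 to 44 reads per library.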
